A study of Mus musculus with 8 samples.

Results

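Messenger RNAs known as targets of the let-7 microRNAs were followed in A3-1 mouse embryonic stem cells by LIN28A CLIP-seq, poly(A) RNA-seq and ribosome profiling. The set holds 10 genes taken by symbol from the deposited tables: Hmga2, Igf2bp1, Igf2bp2, Igf2bp3, Trim71, Arid3a, Mycn, Dicer1, Ccnd1 and Ccnd2. All 10 have a row among the 16456 transcripts of the poly(A) table, 9 have one among the 7820 of the CLIP table (Arid3a has none), and 8 have one among the 7936 of the footprint table (Hmga2 and Arid3a have none). CLIP sequences RNA that UV light has crosslinked to a protein and that an antibody then pulls down. Ribosome profiling sequences the RNA fragments that ribosomes protect, called footprints.

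The cells carry no stated genetic change and were kept in 20% serum with LIF, the cytokine that holds mouse stem cells in the pluripotent state. LIN28A-bound RNA came from cells with no siRNA, with 1 library for each of 3 antibodies: the monoclonals 35L33G and 2J3 and a polyclonal serum. Poly(A) RNA was sequenced from untreated cells and from cells 48 h after siRNA against luciferase (siLuc, the control) or Lin28a (siLin28a), and footprints from the siLuc and siLin28a cells, with 1 library for each condition. All libraries come from 1 cell line and 1 Lin28a siRNA, and the antibody libraries are not stated to be separate cultures, so the p-values below speak of variation between antibody libraries only, and that variation may be technical.

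The let-7 microRNAs are made late in development. They pair through their seed, the bases near their 5′ end, with sites that lie mostly in the 3′ untranslated region (3′ UTR) of target mRNAs, and lower the stability and translation of those mRNAs. LIN28A and its paralog LIN28B bind let-7 precursors and block their maturation, so stem cells hold little mature let-7 and express many of its targets. LIN28A also binds a large number of mRNAs directly. Several targets here are oncofetal genes, which are active in embryos and many tumours and quiet in most adult tissues.

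The seed of the microRNAs reported to target these mRNAs is shown first, with bases 2 to 8 in capitals. The sequences of the target mRNAs themselves were not searched for matches to it. From RefSeq for mouse (GRCm38.p6), 6 mature sequences are printed to show what the family shares and where it varies.
let-7a-5p: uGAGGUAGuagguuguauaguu
let-7d-5p: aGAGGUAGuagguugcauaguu
let-7f-5p: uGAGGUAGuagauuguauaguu
let-7g-5p: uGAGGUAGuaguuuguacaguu
miR-98-5p: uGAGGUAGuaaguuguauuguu
let-7j: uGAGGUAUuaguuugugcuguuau
Of 11 mature sequences of the family in RefSeq, 10, from 12 loci, carried the seed GAGGUAG, and let-7j alone carried GAGGUAU. The match to the shared seed in a target mRNA reads CUACCUC. The printed sequences lie at chr13:48538239-48538260 (let-7a, Mirlet7a-1), chr13:48536078-48536099 (let-7d), chr13:48537889-48537910 (let-7f, Mirlet7f-1), chr9:106178846-106178867 (let-7g), chrX:151913229-151913250 (miR-98) and chr3:140028281-140028304 (let-7j), on the minus strand for those on chromosome 13 and the plus strand for the rest. The Lin28a siRNA is a duplex of 2 strands of 19 bases, printed because every knockdown value below rests on it.
Lin28a siRNA strand 1: auguucuucccuuuuggcc
Lin28a siRNA strand 2: ggccaaaagggaagaacau
Neither strand holds the let-7 seed or its match.

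Lin28a mRNA (NM_145833, mm9 chr4:133559245-133574731) was the check of the knockdown. Untreated cells had 4304 reads of it, siLuc cells 2646 and siLin28a cells 1135. As CPM, each count divided by its library's total and brought to a common library size, these were 465, 354 and 118. Lin28a siRNA left 33.4% of the control level in mRNA and 25.7% in footprints (898 reads with siLuc, 182 with siLin28a). Totals were 7698479 to 8027670 reads in CLIP, 7475174 to 9605641 in poly(A) and 5980673 to 7570209 in footprint libraries. All 10 pluripotency markers listed for a check of cell identity were present, at 116 CPM or more each, and summed to 5611 CPM untreated, 5640 with siLuc and 6449 with siLin28a. Of 9 markers of differentiated lineages 8 were under 1 CPM in untreated cells, and the list summed to 12.5 CPM untreated, 16.1 with siLuc and 30.3 with siLin28a, of which Nes made up 8.74, 10.2 and 21.2. The 6 measured fibroblast markers summed to 186, 294 and 310 CPM, mostly Vim, with Col1a1 at 1.73 CPM or less. The part of these shifts in the values below was not tested.

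The level of each target was read as RPKM, the authors' count scaled by exon length and library total, which allows genes to be compared. Igf2bp1, an RNA-binding protein that stabilises growth-related mRNAs, stood highest (NM_009951, mm9 chr11:95818478-95867258), at 99.8 RPKM in untreated cells, 95.6 with siLuc and 100.5 with siLin28a. Mycn, a MYC-family transcription factor (NM_008709, mm9 chr12:12942899-12948642), was at 89.7, 64.9 and 69.6 RPKM. Ccnd1, which encodes the G1 cyclin D1 (NM_007631, mm9 chr7:152115836-152125830), was at 70.6, 62.1 and 70.2 RPKM. These 3 mRNAs lay between the percentiles 91.2 and 95.7 of transcripts in every condition.

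Trim71 encodes the stem cell protein known as LIN41 in worms, where its mRNA is a classical let-7 target (NM_001042503, mm9 chr9:114420391-114473487). It stood at 64.1 RPKM untreated, 47.8 with siLuc and 54.6 with siLin28a. Igf2bp2 (NM_183029, mm9 chr16:22059082-22163372) was at 46.1, 63.5 and 63.8 RPKM. Dicer1, the enzyme that cuts microRNA precursors to their mature form (NM_148948, mm9 chr12:105925952-105990162), was at 37.1, 35.1 and 31.2 RPKM. The order of Trim71 and Igf2bp2 depended on the library, with Igf2bp2 lower in untreated cells and higher after either siRNA, and Dicer1 was below both in each.

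The lower group held Igf2bp3 (NM_023670, mm9 chr6:49035217-49164953) at 16.3, 17.6 and 19.9 RPKM and the cyclin D2 gene Ccnd2 (NM_009829, mm9 chr6:127075727-127101066) at 13.4, 15.8 and 15.4 RPKM. Hmga2, a chromatin protein that bends AT-rich DNA (NM_010441, mm9 chr10:119798331-119913991), was at 7.88, 9.10 and 8.43 RPKM. Arid3a, an AT-rich DNA-binding factor (NM_007880, mm9 chr10:79389817-79417757), was lowest at 3.81, 2.59 and 3.28 RPKM, from 188, 103 and 168 reads. The 3 IGF2BP paralogs thus kept the order Igf2bp1, Igf2bp2, Igf2bp3 in all 3 libraries, and Ccnd1 lay above Ccnd2 in each. With 1 library a condition, no spread between replicates stands behind these orders.

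**Figure D1:**
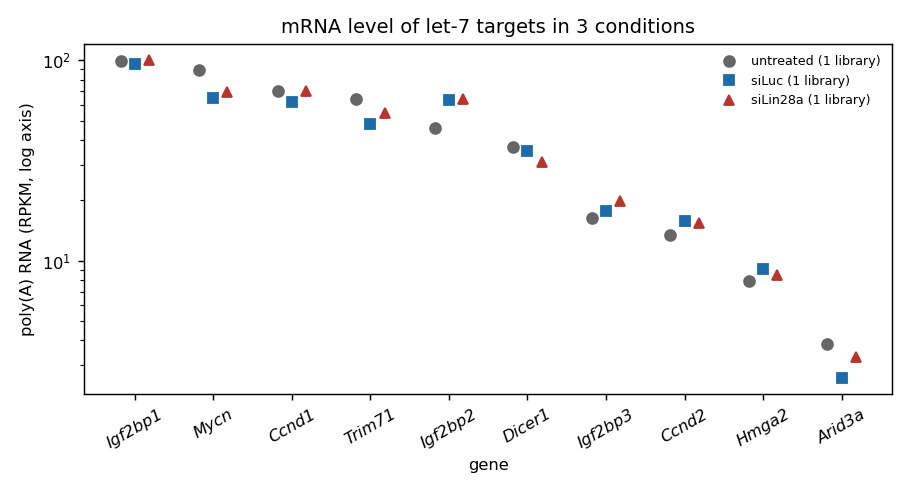
Level of each let-7 target mRNA in poly(A) RNA (RPKM, log axis), with 1 point for each of the untreated, siLuc and siLin28a libraries and no replicates. Igf2bp1 lies at 95.6 to 100.5 RPKM and Arid3a at 2.59 to 3.81, while the ranges of Trim71 (47.8 to 64.1) and Igf2bp2 (46.1 to 63.8) overlap, as do those of Ccnd1 and Mycn.

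The CLIP comparison asks which of these mRNAs were over- or under-represented in LIN28A-bound RNA relative to untreated poly(A) RNA. Hmga2, Mycn, Igf2bp1 and, more weakly, Trim71 were enriched, Ccnd1 was depleted, and Ccnd2, Dicer1, Igf2bp3 and Igf2bp2 passed the test in neither direction. The test was edgeR's quasi-likelihood test of the 3 antibodies against the single untreated library, with Benjamini-Hochberg adjustment over all 7820 transcripts and a threshold of 0.05. Of the 9 targets 4 were enriched and 1 depleted, beside 34.6% and 33.3% of all transcripts, and that difference was not tested. How transcripts were chosen for the CLIP counts is not stated. They include some with few untreated reads and many CLIP reads, such as Serpinh1 (88 untreated, 254, 242 and 290 in CLIP). If low-count transcripts entered only with many CLIP reads, the enriched share is raised. The median of the 9 was 0.27 on the log2 scale, beside −0.03 over all transcripts. Directions are relative to TMM scaling. By total counts the median transcript moved from −0.01 to −0.38, and 1984 transcripts were enriched and 3605 depleted in place of 2702 and 2604.

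Hmga2 had 508 reads with 35L33G, 438 with 2J3 and 553 with the polyclonal serum, against 305 in untreated poly(A) RNA. Its log2 enrichment was 1.304, 1.07 and 1.38, a mean of 1.25 ± 0.16 (SD, n = 3; adjusted p = 7.67e-05, edgeR). All 3 antibodies placed Hmga2 highest of the set, above 83.6% of all transcripts by the mean. The 2 poly(A) tallies of Hmga2 differed, with 373 reads in the poly(A) column of unnamed condition that comes with the CLIP counts, against 305. With that column as input Hmga2 was at 0.93 (adjusted p = 0.00115, edgeR), nearer to Igf2bp1 at 0.75 and Mycn at 0.74.

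Mycn had 2570, 2330 and 2470 CLIP reads against 2158 in poly(A) RNA, and a log2 enrichment of 0.73 ± 0.08 (SD, n = 3; adjusted p = 4.23e-06, edgeR). Igf2bp1 had 8587, 8402 and 8648 against 7746, and stood at 0.69 ± 0.02 (SD, n = 3; adjusted p = 3.43e-08, edgeR). The antibodies differed least for Igf2bp1, the most deeply read mRNA of the set. Trim71 had 2434, 2427 and 2751 CLIP reads against 3084 and stood at 0.27 ± 0.08 (SD, n = 3; adjusted p = 0.0249, edgeR). That call did not hold without the polyclonal library (log2 0.22, adjusted p = 0.0773, edgeR), and by total counts Trim71 lay at −0.10, on the other side of 0.

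Ccnd1 had 951, 1112 and 943 CLIP reads against 2484 in poly(A) RNA. Its log2 enrichment was −0.82, −0.61 and −0.87, a mean of −0.76 ± 0.14 (SD, n = 3; adjusted p = 3.09e-05, edgeR), and no antibody placed it above any other member. The related cyclin mRNA Ccnd2 had 603, 642 and 541 CLIP reads against 719 and stood at 0.27 ± 0.14 (SD, n = 3; adjusted p = 0.2, edgeR). Ccnd2 lay above Ccnd1 with every antibody, and the 2 did not overlap.

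The IGF2BP paralogs differed as well. Igf2bp2 had 872, 1108 and 984 CLIP reads against 1666, with a log2 enrichment of −0.21 ± 0.17 (SD, n = 3; adjusted p = 0.21, edgeR). Igf2bp3 had 411, 502 and 466 against 658, at 0.03 ± 0.14 (SD, n = 3; adjusted p = 0.9, edgeR), with 1 antibody below 0 and the other two above it. In each antibody library Igf2bp1 lay above Igf2bp3 and Igf2bp3 above Igf2bp2, while the ranges of Igf2bp2 and Igf2bp3 over the antibodies overlapped. Dicer1 had 2487, 2507 and 2777 reads against 3386 and stood at 0.16 ± 0.07 (SD, n = 3; adjusted p = 0.147, edgeR). With the CLIP table's poly(A) column as input Dicer1 was called enriched at 0.25 (adjusted p = 0.0301, edgeR).

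**Figure D2:**
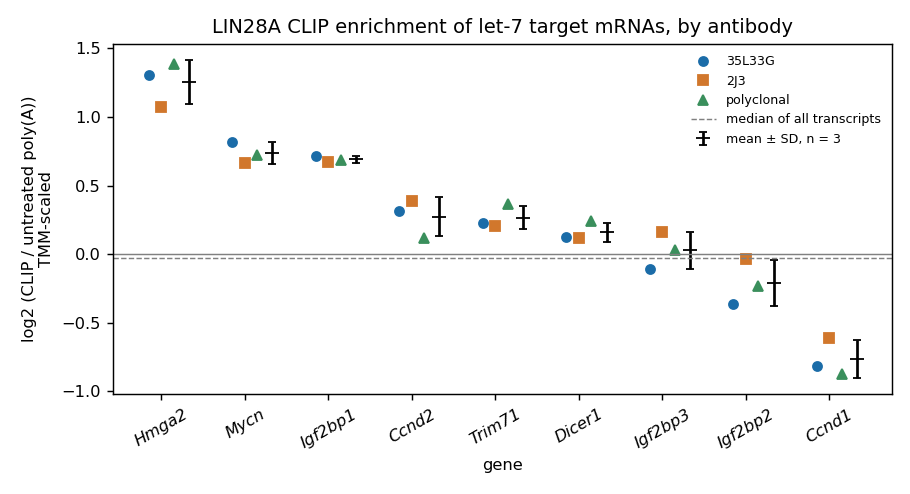
Log2 ratio of LIN28A CLIP to untreated poly(A) reads for the 9 targets in the CLIP table, with 1 point per antibody, the mean ± SD over the 3 antibodies beside them, and a dashed line at the median of all 7820 transcripts. Hmga2 is at 1.25 ± 0.16 and Ccnd1 at −0.76 ± 0.14, and the remaining genes lie between them.

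Since let-7 sites lie mostly in 3′ UTRs, the next comparison asks where along each mRNA the CLIP reads fell. No let-7 site was located in these mRNAs, so the position of CLIP reads relative to sites was not tested. For each library the 3′ UTR share was the percentage of coding plus 3′ UTR reads that lay in the 3′ UTR. The CLIP libraries were set against the poly(A) column of the same table, which carries the length of each region and its coverage in ordinary RNA. Mycn, Trim71, Ccnd1 and Igf2bp1 had a larger 3′ UTR share in LIN28A CLIP than in poly(A) RNA, and no target had a significantly smaller one. Of 7139 transcripts tested 15.6% shifted toward the 3′ UTR and 7.51% toward the coding sequence, beside 4 and 0 of the 9 targets. With each region's columns scaled on their own, a setting chosen after seeing the data, the counts over all transcripts were 829 and 788 in place of 1112 and 536, and the targets' counts stayed 4 and 0.

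Mycn had 1218 coding and 706 3′ UTR reads in poly(A) RNA, a 3′ UTR share of 36.7%. In CLIP it had 453 coding and 1987 3′ UTR reads with 35L33G, 403 and 1765 with 2J3, and 396 and 1994 with the polyclonal serum. The 3′ UTR share of Mycn was therefore 81.4%, 81.4% and 83.4%, well above the input share with every antibody. The log2 difference of the 3′ UTR to coding ratio was 2.98 ± 0.12 (SD, n = 3; adjusted p = 0.000284, edgeR, region by assay term of the quasi-likelihood fit). Taken apart, the coding reads of Mycn were at −1.04 ± 0.12 and its 3′ UTR reads at 1.95 ± 0.10 relative to poly(A) (SD, n = 3), so the modest enrichment over the whole mRNA joined values of opposite sign.

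Trim71 showed the same form. Its 3′ UTR share was 30.5% in poly(A) RNA (1708 coding and 751 3′ UTR reads) and 71.3%, 74.6% and 76.2% in CLIP, where coding reads numbered 648, 581 and 606 and 3′ UTR reads 1613, 1705 and 1939. The log2 difference was 2.70 ± 0.18 (SD, n = 3; adjusted p = 0.000499, edgeR). Its coding reads were at −0.97 ± 0.09 and its 3′ UTR reads at 1.73 ± 0.12 (SD, n = 3), again on opposite sides of 0.

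Ccnd1, which was depleted in CLIP as a whole, had a 3′ UTR share of 62.5% in poly(A) RNA and 88.0%, 85.0% and 88.0% in CLIP, from 113, 166 and 111 coding and 831, 940 and 814 3′ UTR reads. The difference was 2.01 ± 0.22 (SD, n = 3; adjusted p = 0.00337, edgeR). Its coding reads were at −2.22 ± 0.33 and its 3′ UTR reads at −0.21 ± 0.12 (SD, n = 3), so the depletion lay mainly in the coding sequence. For Igf2bp1 the share was 63.7% in poly(A) RNA and 76.1%, 74.2% and 77.3% in CLIP, a difference of 0.84 ± 0.12 (SD, n = 3; adjusted p = 0.0115, edgeR). The shift of Igf2bp1 was the smallest of the 4 that passed the test, and the median transcript was at 0.25. By size of shift Igf2bp1 was at percentile 68.3 of the transcripts tested. Hmga2 (68.7) and Ccnd2 (73.9), which did not pass, lay higher.

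The other 5 targets passed in neither direction. Ccnd2 had a 3′ UTR share of 77.7% in poly(A) RNA and 85.3% to 90.5% in CLIP, and a difference of 1.05 ± 0.36 (SD, n = 3; adjusted p = 0.119, edgeR). Hmga2, whose coding sequence spans 327 of 4176 bases, had 33 coding reads in poly(A) RNA and 26 to 34 in CLIP, so its share (89.7% and 93.2% to 95.3%) rests on few coding reads (0.85 ± 0.30, SD, n = 3; adjusted p = 0.258, edgeR). Igf2bp2 was at 0.19 ± 0.19 (SD, n = 3; adjusted p = 0.69, edgeR). Dicer1 and Igf2bp3 lay on the coding side, at −0.37 ± 0.13 (SD, n = 3; adjusted p = 0.245, edgeR) and −0.80 ± 0.34 (SD, n = 3; adjusted p = 0.24, edgeR). Their CLIP shares, 14.5% to 16.9% and 33.9% to 45.0%, were below the poly(A) shares of 19.4% and 53.6% with every antibody.

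**Figure D3:**
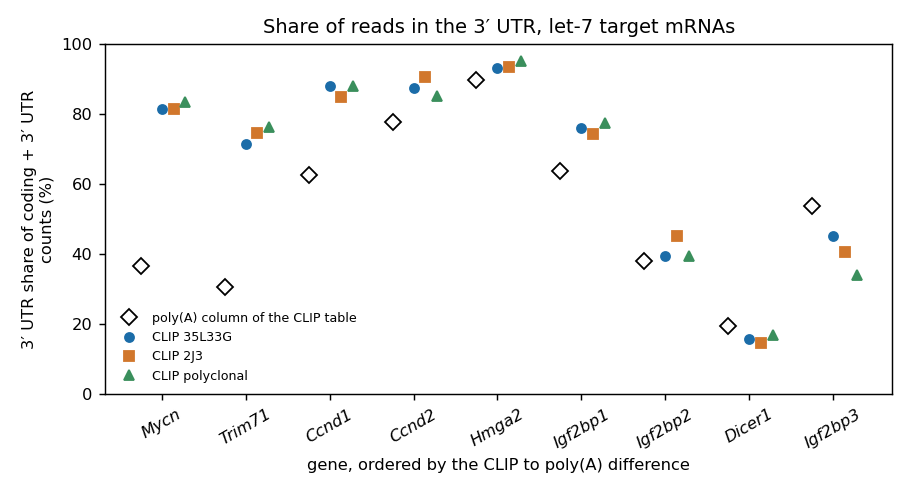
Percentage of coding plus 3′ UTR reads that lay in the 3′ UTR for each target, in the poly(A) column beside the CLIP counts (open diamond) and in each antibody library. Mycn rises from 36.7% to 81.4% or more and Trim71 from 30.5% to 71.3% or more, while Dicer1 and Igf2bp3 lie below their poly(A) share.

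The third comparison asks how the mRNA of each target differed 48 h after Lin28a siRNA. With 1 library a condition a difference has no replicates behind it. No p-value is printed, and 95% intervals cover counting error only. None of the 10 mRNAs differed from siLuc by 1.5-fold in either direction, beside 7.62% of 8859 transcripts higher and 4.5% lower by that much. Their median log2 change was 0.09, within −0.17 to 0.34, and the median of all transcripts was −0.0018 with single transcripts spread by 0.36 (scaled median absolute deviation). In bulk samples fewer cells of a type and less RNA per cell cannot be told apart.

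Arid3a had the highest ratio, 13.8 CPM with siLuc and 17.5 with siLin28a, a log2 change of 0.34 with a counting interval that spans 0 (−0.02 to 0.71). Trim71 went from 248 to 284 CPM (0.19, interval 0.11 to 0.28), Ccnd1 from 236 to 266 (0.18, 0.09 to 0.26) and Igf2bp3 from 76.5 to 86.3 (0.17, 0.02 to 0.33). Igf2bp1 was at 802 and 842 CPM (0.07, 0.02 to 0.12) and Mycn at 169 and 181 (0.10, −0.0049 to 0.21). These 6 ratios lay above 0, each inside the spread of single transcripts. Dicer1 was lowest, from 346 to 308 CPM (−0.17, −0.25 to −0.09). Hmga2 (−0.11, −0.34 to 0.12), Ccnd2 (−0.03, −0.18 to 0.11) and Igf2bp2 (0.0055, −0.08 to 0.09) had intervals that span 0.

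The siLuc library itself differed from untreated cells by as much or more for several targets. Arid3a was at −0.56 (−0.92 to −0.20), Mycn at −0.47 (−0.57 to −0.37) and Trim71 at −0.42 (−0.51 to −0.34) on the log2 scale, and Igf2bp2 was at 0.46 (0.37 to 0.56). No target reached 1.5-fold here, beside 3.31% of 8743 transcripts higher and 4.46% lower. This comparison and the one above share the siLuc library. Against untreated cells siLin28a gave a median of 0.0008 for the 10 mRNAs, with Mycn lowest at −0.37 (−0.46 to −0.27) and Igf2bp2 highest at 0.47 (0.38 to 0.56), and again none at 1.5-fold, beside 7.43% higher and 5.07% lower of 9056 transcripts.

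The fourth comparison concerns ribosome footprints. By total counts they were fewer with siLin28a for 7 of the 8 measured targets, but the median transcript was also below 0 (−0.21). Relative to that median 7 of the 8 were still below 0. Igf2bp1 had 4372 footprint reads in the control and 1634 after Lin28a siRNA (578 and 273 CPM), a log2 change of −1.08 (−1.16 to −0.998). Igf2bp3 had 337 and 123 reads, 44.5 and 20.6 CPM (−1.11, −1.42 to −0.81), and Ccnd2 had 355 and 136, 46.9 and 22.7 CPM (−1.04, −1.34 to −0.76). For these 3 the siLin28a footprints were 47.3%, 46.3% and 48.6% of the siLuc level, while mRNA stood at 105.1%, 112.8% and 97.6%.

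Igf2bp2 had 713 and 340 footprint reads, at 94.2 and 56.8 CPM (−0.73, −0.92 to −0.54). Ccnd1 had 947 and 515 (−0.54, −0.70 to −0.38), Mycn 793 and 460 (−0.45, −0.61 to −0.28) and Trim71 459 and 267 (−0.44, −0.66 to −0.22). Dicer1 lay on the other side, with 712 and 621 reads or 94.1 and 103.8 CPM, a log2 change of 0.14 whose interval spans 0 (−0.01 to 0.30). By total counts the median of all 6323 transcripts with 200 or more footprint reads was −0.21, and that of the 8 targets −0.63. At least 1.5-fold lower were 4 of 8 targets beside 26.9% of transcripts, and 0 were higher beside 14.4%. Relative to the median transcript 3 of 8 were lower beside 16.2%, and 0 higher beside 20.8%.

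The fifth comparison divides the footprint change by the mRNA change, as ribosome density, within the footprint table and relative to the median of 7799 transcripts (which lay at −0.22 by total counts). Density was at least 1.5-fold lower for Igf2bp3, Igf2bp1, Ccnd1 and Ccnd2, or 4 of 8 targets beside 17.0% of transcripts, and for 0 of 8 that much higher beside 18.6%. The median of the 8 was −0.62, with values from −1.02 to 0.51. The poly(A) counts in this table are fewer than in the poly(A) table for the targets (27.8% for Ccnd2 to 77.7% for Dicer1). The coding share of their poly(A) reads in the CLIP table was similar for some, such as Dicer1 (79.4%) and Ccnd1 (36.4% against 34.4%). It was lower for Ccnd2 (21.9%), Igf2bp1 (35.6% against 44.0%) and Igf2bp3 (44.4% against 56.5%). Footprints also lie in coding sequence.

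Igf2bp3 had 323 poly(A) reads with siLuc and 450 with siLin28a in this tally, and a density change of −1.02 (−1.38 to −0.66). Igf2bp1 had 2639 and 3281 poly(A) reads and a change of −0.82 (−0.93 to −0.71), the narrowest interval of the set. Ccnd2 had 189 and 227 poly(A) reads and stood at −0.73 (−1.13 to −0.34). The density of these 3 after Lin28a siRNA was 49.4%, 56.5% and 60.2% of the siLuc value, taking the median transcript as 100%.

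Ccnd1 had 607 and 1096 poly(A) reads and a density change of −0.82 (−1.03 to −0.61). Its mRNA change was larger in this tally (0.50) than in the poly(A) table (0.18), and with the poly(A) table's counts the density change was −0.49. Trim71 was at −0.50 (−0.74 to −0.26), Mycn at −0.47 (−0.68 to −0.26) and Igf2bp2 at −0.45 (−0.67 to −0.24). For Dicer1 the change was 0.51 (0.33 to 0.69), from 2012 and 2319 poly(A) reads. Dicer1 was the only one of the 8 above the median transcript, and its interval does not meet that of any other target. Lin28a itself, the siRNA's target, was at −0.55 (−0.88 to −0.22), from 398 and 223 poly(A) reads in this tally. Its mRNA change was smaller in this tally (−1.19) than in the poly(A) table (−1.58), so its density value depends on the tally. The density change of Lin28a with the poly(A) table's counts was not computed.

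**Figure D4:**
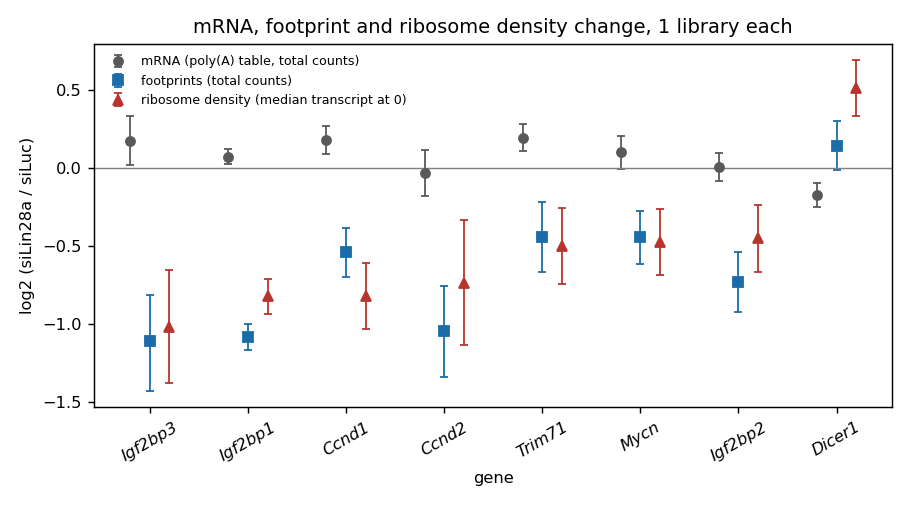
Log2 ratio of siLin28a to siLuc for mRNA, footprints and ribosome density of the 8 targets in the footprint table, 1 library per condition, with bars for the 95% counting interval. mRNA lies near 0 for all 8, footprints and density lie below 0 for 7, from −1.11 upward, and Dicer1 is above 0 in both.

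Before Lin28a knockdown the targets differed widely in ribosome density. With siLuc, relative to the median transcript, log2 density was 1.16 (0.91 to 1.42) for Ccnd2, 0.98 (0.91 to 1.05) for Igf2bp1 and 0.90 (0.75 to 1.04) for Ccnd1. These 3 were at the percentile 79.0 of transcripts or above, and their intervals overlap. Igf2bp3 was at 0.32 (0.10 to 0.54) and Mycn at 0.28 (0.14 to 0.42), whose intervals also overlap. Igf2bp2 was at −0.53 (−0.66 to −0.39), Trim71 at −0.95 (−1.10 to −0.79) and Dicer1 lowest at −1.24 (−1.37 to −1.12), each apart from its neighbour in this order. This order depended on the tally. With the poly(A) table's counts as denominator Ccnd1, Ccnd2 and Igf2bp3 were below the median transcript, at −0.22, −0.26 and −0.0896, Igf2bp1 was at 0.22 and Mycn at 0.0051. Trim71 (−1.34) was then lower than Dicer1 (−1.19). The siLuc footprint and poly(A) libraries enter both this level and the density change.

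Each target was also matched to the transcript of another gene nearest to it among 6830 transcripts, over 4 values (CLIP enrichment, mRNA change, footprint change and siLuc density), each divided by its SD over transcripts. Dicer1 lay closest to its match, Uvrag, at a distance of 0.09 SD. Igf2bp2 was nearest to Ints6 (0.15), Trim71 to Rhobtb2 (0.16), Ccnd1 to Usp22 (0.20) and Mycn to Parp14 (0.27). Igf2bp3 was nearest to Wdr1 (0.37), and Ccnd2 to Elavl1 (0.29). Igf2bp1 was nearest to another member, Ccnd2, though only at 0.50 SD.

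Paralogs of the targets were read beside them in the CLIP table. All 4 with a row were depleted, beside 33.3% of all transcripts. Hmga1 was at −2.06 ± 0.66, Myc at −1.93 ± 0.15, Ccnd3 at −1.73 ± 0.39 and Arid3b at −1.36 ± 0.10 (SD, n = 3; adjusted p from 0.00531 to 2.05e-07, edgeR). Hmga1 lay below Hmga2, Myc below Mycn, and Ccnd3 below Ccnd1 and Ccnd2 with every antibody, while Arid3a has no CLIP value to set beside Arid3b. The counts of Hmga1 are uncertain, since its poly(A) reads with siLuc and siLin28a numbered 1226 and 1512 in the footprint table while untreated cells had 214 in the poly(A) table. Myc, like Mycn, had fewer footprints with siLin28a (326 and 138 reads, log2 −0.90), and its ribosome density change was −1.10 (−1.44 to −0.76). Of the 4 paralogs with a density value 0 were above the median transcript, but the intervals of Hmga1 (−0.24 to 0.04) and Arid3b (−0.43 to 0.15) span 0. Only Myc, 1 of the 4, was at least 1.5-fold lower, beside 17.0% of transcripts.

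A longer list of 30 other reported let-7 targets was read in the same way. Of 24 with CLIP counts, 9 were enriched and 8 depleted, beside 34.6% and 33.3% of all transcripts. Acvr2a, among the enriched (3.23 ± 0.13, SD, n = 3), had 196 untreated reads, while Irs2 (140) and Plagl1 (119) have no CLIP counts. The enriched count may thus include genes present only because their CLIP reads were many, which was not tested. The other 7 were not called, and the median was 0.11. The receptor genes Tgfbr1 (TGF-β receptor, 3.03 ± 0.08), Insr (insulin receptor, 2.54 ± 0.04) and Igf1r (IGF-1 receptor, 2.34 ± 0.05) were among the enriched (SD, n = 3; adjusted p from 1.24e-14 to 5.16e-10, edgeR), all above Hmga2. Of 23 tested for region 6 shifted toward the 3′ UTR and 0 toward the coding sequence, beside 15.6% and 7.51% of all transcripts tested. In mRNA 3 of 26 were at least 1.5-fold higher with siLin28a and 3 lower, beside 7.62% and 4.5% of transcripts. Ribosome density was at least 1.5-fold higher for 6 of 22 and lower for 5, beside 18.6% and 17.0% of transcripts. The median density change of the 22 was −0.08. Differences from the shares of all transcripts were not tested. Tgfbr1 (1.12, 0.74 to 1.496), Igf1r (0.96, 0.68 to 1.24) and Insr (0.85, 0.41 to 1.28) lay high, while Cdc25a, a phosphatase that drives the cell cycle, was at −0.96 (−1.24 to −0.68) and Sall4, a pluripotency factor, at −0.81 (−0.93 to −0.69). The longer list thus held density values on both sides of the median transcript. It includes Hmga1 and Myc, which also stand among the paralogs, and Lin28a, the siRNA's target.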

How the data were processed

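Per the submitters' processing notes, mm9, GSNAP and bedtools were used; the sources used here do not say in which roles or how reads were counted. The deposited values used are whole-read counts per RefSeq transcript and region, and the authors' RPKM, which equal those counts scaled by exon length and library total. Counts from the footprint table have at least 80 poly(A) reads per library. Another 18 per-sample columns were left out.

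CLIP was tested with edgeR 4.0.16 (R 4.3.3; TMM, filterByExpr, quasi-likelihood), with DESeq2 1.42.0 as an alternative. Spread is known for the 3 CLIP libraries only and is assumed for the lone input. The region fit had library, region and region by assay terms, and required 10 reads per region in summed CLIP and in the table's poly(A) column, whose header names no condition. Per-antibody ratios and changes used a pseudocount of 0.5 reads, and 1.5-fold was the threshold without replicates. Shares of transcripts past 1.5-fold in mRNA and footprints cover those with 200 reads or more over both libraries. Density needed 50 in each assay. The percentiles given cover all transcripts with RPKM for levels, all with CLIP counts for CLIP enrichment, and all with a density value for density. Intervals (95%) are Clopper-Pearson for ratios and a normal approximation for density, and cover counting error only.

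All 10 members are named wherever measured, with paralogs, other targets and processing genes from lists, and for each member the 1 nearest transcript. Members and lists were chosen with earlier results of these data known. The scripts were tested on simulated data. Alternatives were scaling, input, filter, pseudocount, tally and leaving out each antibody.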

Additional observations from a re-analysis of the deposited data

How the results depend on the processing

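Among the counts of calls and the medians of the targets, 82 of 86 recomputed values stayed within 1.5 times the reported count or, for medians of changes, within the targets' median counting half-interval. The 86 include counts over all transcripts. They also include CLIP counts without the filter on low counts, which equalled the reported 2702 and 2604, so that setting was no test of them. By total counts 2 targets, not 1, were depleted in CLIP, since Igf2bp2 passed the test there (−0.57, adjusted p = 0.00133, edgeR). With TMM factors the targets' median footprint change was −0.40. Without centring, their median density change was −0.83, and 7 were at least 1.5-fold lower.

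By total counts 4 CLIP values turned sign: Igf2bp3 (−0.34), Trim71 (−0.10), Dicer1 (−0.21) and Ccnd2 (−0.0901), which follows from the shift of the median transcript. Igf2bp3 was at −0.0388 without 2J3, and 0.0918 without 35L33G. Igf2bp2 was at −0.12 in region difference with separately scaled columns. Density with siLuc turned to −0.22 for Ccnd1, −0.26 for Ccnd2 and −0.0896 for Igf2bp3 with the poly(A) table's counts. Leaving out each antibody gave 3 to 4 enriched and 1 depleted target in CLIP, and 4 and 0 by region. No paired analysis was possible because the labels give no replicate numbers and each siRNA condition has 1 library. Depth limits the region value of Hmga2 (33 coding poly(A) reads), the mRNA values of Arid3a (103 to 188 reads) and the density of Ccnd2 (136 footprint reads with siLin28a).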

Other observations

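Genes that make microRNAs or carry out silencing were listed beside the targets. Of 17 genes 15 had CLIP counts, with 6 enriched and 4 depleted, beside 34.6% and 33.3% of all transcripts. The other 5 were not called, and the difference from those shares was not tested. Eif2c3, among the enriched, had 181 untreated reads, while Prkra, with 105, has no CLIP counts. Tnrc6b, a scaffold of the silencing complex, was at 1.75 ± 0.13, Zcchc11, which adds uridines to let-7 precursors bound by LIN28A, at 1.23 ± 0.06 and Eif2c2, which encodes Argonaute 2, at 1.07 ± 0.05 (SD, n = 3; adjusted p from 5.47e-10 to 4.11e-07, edgeR). The precursor exporter gene Xpo5 was at −0.66 ± 0.02 and Dis3l2, a nuclease of uridylated let-7 precursors, at −1.28 ± 0.27 (SD, n = 3; adjusted p = 8.31e-05 and 0.0029, edgeR). Lin28b was at 1.77 ± 0.06 and Lin28a at 0.11 ± 0.11 (SD, n = 3; adjusted p = 1.19e-09 and 0.316, edgeR).

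Drosha, the nuclear enzyme that acts before Dicer1, was read beside it. Both had region differences on the coding side, −2.65 ± 0.62 for Drosha (SD, n = 3; adjusted p = 0.00358, edgeR) and −0.37 ± 0.13 for Dicer1 (SD, n = 3; adjusted p = 0.245, edgeR). With siLin28a its footprints went from 1044 to 436 reads, a ribosome density change of −0.81 (−0.99 to −0.63), against 0.51 (0.33 to 0.69) for Dicer1. Of 13 processing and silencing genes with a density value 2 were at least 1.5-fold lower and 0 higher, beside 17.0% and 18.6% of transcripts. Their median was −0.25, and they include Lin28a, the siRNA's target, at −0.55, a value that depends on the poly(A) tally.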
